A study of Mus musculus with 4 samples.

Results

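Replication timing was read at 10 classical cadherin genes in mouse embryonic stem cells (mESCs), Cdh1, Cdh2 and Cdh3 of type I and Cdh6, Cdh8, Cdh9, Cdh10, Cdh11, Cdh12 and Cdh18 of type II. The 50 kb bins that overlap each gene body in GENCODE vM21 (mm10) were used along with the bins within 1 Mb on each side. The 10 genes are among 21679 protein-coding genes with a value on the autosomes and X, and their bodies and windows hold 80 and 403 of 51153 bins. Cdh1 and Cdh3 were chosen as the members that ES cells express, and they were set against the 8 members in gene-poor regions, which have at most 4 other protein-coding gene starts per Mb in their window.

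The cells were diploid F121-9, a hybrid mESC line of a *musculus* 129 and a *Castaneus* genome, cultured without feeders in N2B27 medium with 2i and LIF and given no other treatment. Cycling cells were pulse labeled with BrdU and sorted by DNA content, and labeled DNA was sequenced in 2 libraries of early S-phase and 2 libraries of late S-phase cells. The deposited value, RT, is the log2 of early over late reads in a 50 kb bin, so that RT above 0 means more early reads. It is 1 value per bin for all 4 libraries and both homologs of a single line. No error between replicates can be given, the read depth behind a bin is unknown, and no test between groups was made. RNA was not measured in these libraries, so neither the cell type nor the expression of a cadherin could be checked here. As a measure of precision, the SD of a single bin was estimated as 0.15 from flat parts of the profile (n = 28692 bins). It was scaled from the median absolute deviation of bins from the mean of their neighbors, with the noise of the neighbors taken out. This value is called the SD between flat bins below.

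Classical cadherins are transmembrane proteins that hold neighboring cells together through calcium-dependent contacts between their extracellular domains, while their cytoplasmic tails bind beta-catenin and p120-catenin. Type I members mediate strong adhesion in epithelia, in the early embryo and in neural and muscle tissue, and type II members are best known from sorting and synaptic matching of neurons and from mesenchymal and vascular cells. Replication timing is the order in which DNA is copied in S-phase. Early replication is known to go with gene-dense, open chromatin and late replication with gene-poor chromatin at the nuclear lamina.

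The members fell at both ends of the RT scale. Cdh1 and Cdh3 lay in an early plateau at RT near 3.5, Cdh6 straddled the border between early and late DNA, Cdh9 and Cdh2 had RT near -2, and Cdh12, Cdh18, Cdh8, Cdh11 and Cdh10 lay below -3. By their mean RT 3 of 10 members were early, whereas 72.5% of all protein-coding genes were. Of the 8 members in gene-poor regions 1 was early, Cdh6, beside 36.5% of the 2093 protein-coding genes in such regions. By the bin of the gene start alone, 2 of the 10 members and 0 of the 8 were early, beside 72.9% and 38.3% of all such genes. All 8 of these members are also at least 100 kb long. Of all genes of that length 56.7% were early, and of the 675 that are both long and in gene-poor regions 24.3% were early. The median RT of the 10 members was -2.74, beside 2.23 for all protein-coding genes, -1.07 for those in gene-poor regions and -1.87 for those that are long as well.

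**Figure D1:**
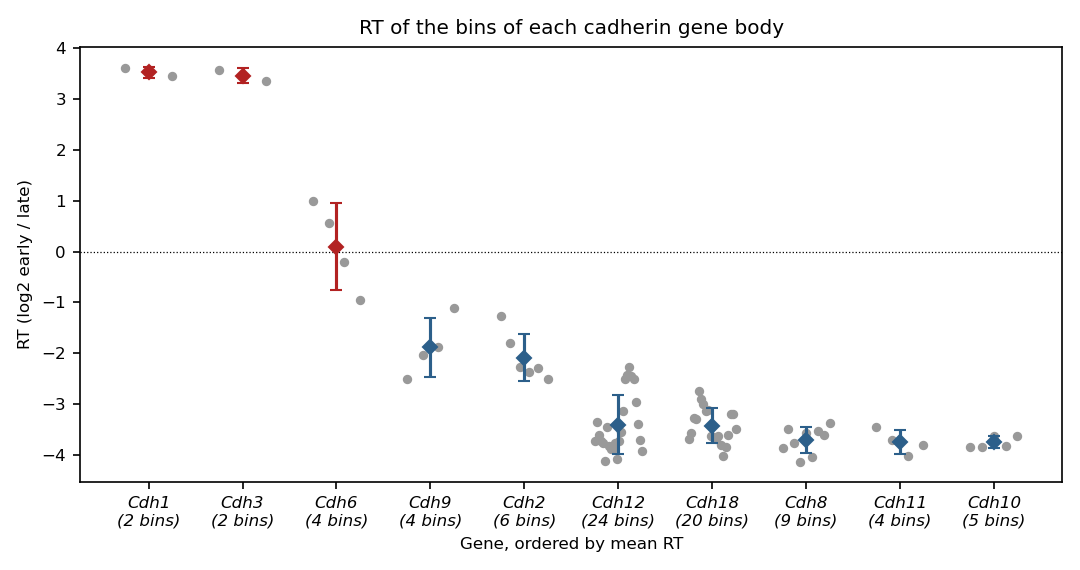
RT (log2 early over late, y axis) of every 50 kb bin in the body of each cadherin gene (gray points, placed from the lower to the higher coordinate), with the mean and the SD over bins (diamonds and bars, red for a mean above 0 and blue below). The 4 bins of Cdh1 and Cdh3 lie between 3.36 and 3.60, the bins of Cdh6 run from 0.99 to -0.95, and all bins of the other 7 genes are at or below -1.11.

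Cdh1, which encodes E-cadherin, the main adhesion molecule of epithelia and of pluripotent cells, was the earliest member. Its body (chr8:106603351-106670246, + strand, 66.9 kb) covers 2 bins with RT of 3.60 and 3.45, a mean of 3.53 ± 0.11 (SD over bins). Cdh3, which encodes P-cadherin of placenta and basal epithelia, lies just upstream on the same strand (chr8:106510891-106557297, 46.4 kb). Its 2 bins had RT of 3.57 and 3.36, a mean of 3.46 ± 0.15. The genes share no body bin, and their means differed by 0.06, less than the SD of either. Cdh1 had a higher mean RT than 85.8% of protein-coding genes and Cdh3 than 82.5%, so both were above most genes without reaching the top of the distribution.

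The surroundings of Cdh1 and Cdh3 were early too, with window means slightly below the means of the genes themselves. The bins downstream of Cdh3 averaged 3.46, the same as its body, and both windows include the low bin described below. All 42 bins of each window were early, with a window mean of 3.35 for Cdh1 and 3.36 for Cdh3. They lie within 2.85 Mb of unbroken early bins (chr8:105000001-107850000, mean 3.13 ± 0.77 over 57 bins) that hold 83 protein-coding genes, or 29.1 per Mb, compared with 8.48 per Mb over all bins. The nearest protein-coding neighbors are 6030452D12Rik, 3.55 kb from Cdh3, and Tango6, 12.8 kb from Cdh1, whose RT was 3.49. The highest bin of either window was 700 kb upstream of Cdh1 and covers Pskh1, Ctrl, Psmb10, Lcat and Slc12a4. A single bin, chr8:106100001-106150000, stood apart from this plateau with an RT of 1.29 between neighbors at 3.32 and 3.29. It lies 500 kb upstream of Cdh1 and holds Nfatc3 and Esrp2, and all 50000 of its bases are assembled. What set its value was not tested.

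**Figure D2:**
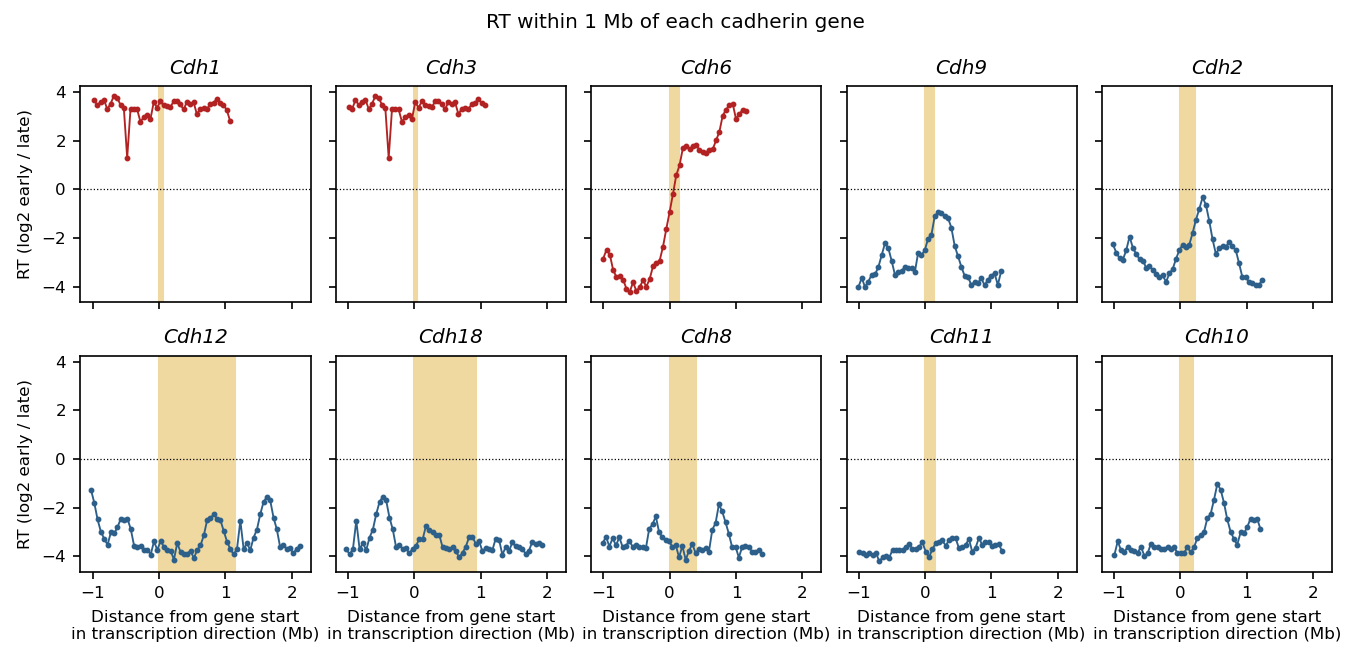
RT (log2 early over late) of the bins within 1 Mb of each gene, against the distance from the gene start in the direction of transcription (Mb), with the gene body shaded and the line red for a mean RT above 0 and blue below. Every bin around Cdh1 and Cdh3 is early, the window of Cdh6 changes from late to early in the body, and every bin around the other 7 genes is late.

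Cdh6, a type II cadherin of kidney and of the developing nervous system, was the only member with early and late bins in its body. Along the chromosome (chr15:13028701-13173675, - strand, 145 kb) its 4 bins had RT of 0.99, 0.57, -0.21 and -0.95. The gene starts in the late bin and ends in the early one. The profile crossed 0 at about position 13111439, in an intron, and fell by 12.9 log2 units per Mb between the outer bins of the body. Crossings of this kind within a body were found in 452 of the 2488 genes of at least 100 kb, or 18.2%, and in 1 of the 8 long members. The mean of Cdh6, 0.10 ± 0.86, is nearer to 0 than the SD between flat bins, and its classing as early rests on that value.

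The window of Cdh6 had the widest range of any member, from -4.22 to 3.52, with 22 early and 22 late bins. The 20 bins upstream of its start averaged -3.36 ± 0.70 and the 20 bins downstream 2.33 ± 0.77, a difference of -5.69. The early side holds its nearest neighbor Drosha, the nuclear nuclease of microRNA processing, at a mean RT of 1.73 and 93.4 kb from Cdh6. The highest bin of the window, 800 kb downstream, covers Mtmr12. On the other side the next protein-coding gene is Cdh9, 3555 kb away.

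That late side continues without an early bin for 12.1 Mb (chr15:13100001-25200000, 242 bins, mean -3.17 ± 0.78). It was the longest of the 1000 runs of late bins on the autosomes and X, ahead of a run of 11.9 Mb on chromosome 1. The protein-coding genes wholly inside it are Cdh9, Cdh10, Cdh12, Acot10 and Cdh18, of which Acot10 lies in the body of Cdh12, and Cdh6 reaches in from its lower edge. This is 0.413 protein-coding genes per Mb, and 4 of the 5 are cadherins. The rank depends on the rule. After a running median over 5 bins it ranked 2 of 823, behind a run of 13 Mb on chromosome 16. With the cut between early and late at the median RT of all bins, -0.98, it broke at the bin 50 kb past Cdh9, and the stretch with Cdh10, Cdh12 and Cdh18 was 8.2 Mb long and ranked 8 of 1014.

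**Figure D3:**
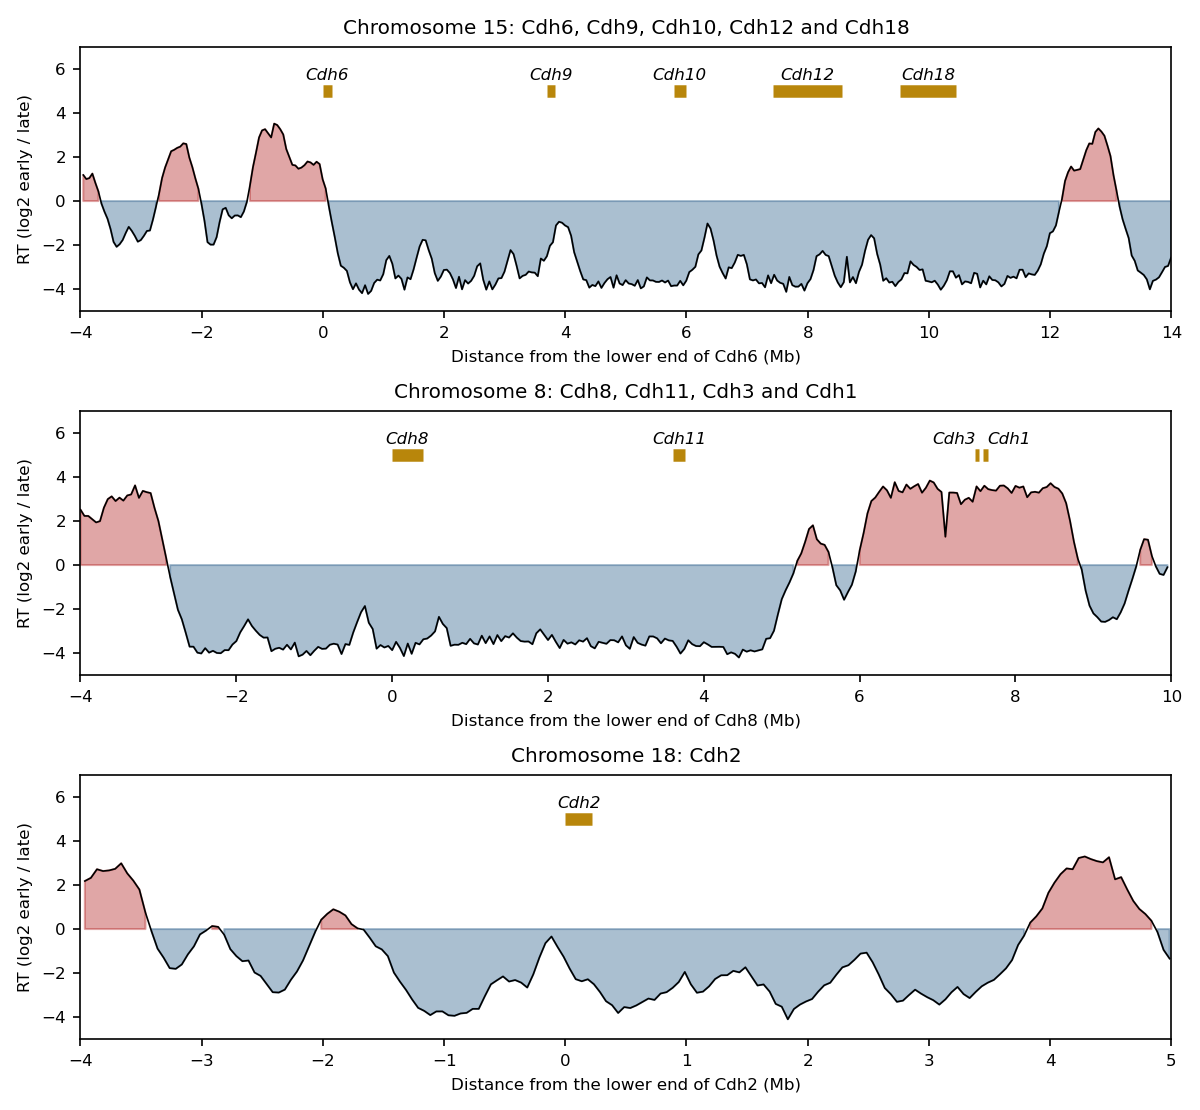
RT (log2 early over late, filled red above 0 and blue below) along the regions of chromosomes 15, 8 and 18 that hold the cadherin genes (gold bars), against the distance in Mb from the lower end of Cdh6, Cdh8 and Cdh2. The late run of 12.1 Mb from Cdh6 past Cdh18 and the late run of 8.05 Mb around Cdh8 and Cdh11 contrast with the early run of 2.85 Mb around Cdh3 and Cdh1.

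Cdh9 was the least late gene of that run. It encodes a type II cadherin of hippocampal and retinal synapses and is 128 kb long (chr15:16728756-16857094, + strand). From start to end its 4 bins had RT of -2.51, -2.03, -1.87 and -1.11, a mean of -1.88 ± 0.58. The rise went on to -0.94 in the bin 50 kb past the 3′ end, the highest value of its window. No other protein-coding gene starts within 1 Mb of Cdh9.

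The other 3 cadherin genes wholly in the run, all type II cadherins found mainly in the brain, were later. Cdh12 (chr15:20449265-21589533, + strand, 1140 kb, 24 bins) had a mean of -3.40 ± 0.58 and ranged from -4.13 to -2.27. Its highest bins lay in the distal part of the body, where RT ran through -2.50, -2.42, -2.27, -2.45 and -2.50 in neighboring bins. Cdh18 (chr15:22549022-23474418, + strand, 925 kb, 20 bins) had a mean of -3.42 ± 0.34 and ranged from -4.03 to -2.74. Cdh10 (chr15:18818947-19014236, + strand, 195 kb) had the lowest mean over its body, though not beyond the spread from Cdh11, and the smallest SD among the late members, with RT of -3.84, -3.84, -3.63, -3.83 and -3.62 in its 5 bins and a mean of -3.75 ± 0.12. Between Cdh12 and Cdh18 a single bin (chr15:21650001-21700000) had an RT of -2.53 between neighbors at -3.69 and -3.70.

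Cdh8 and Cdh11 lie in another long late run, 8.05 Mb on the same chromosome as Cdh1 and Cdh3 (chr8:96150001-104200000, mean -3.40 ± 0.64), which ranked 17 of 1000. Cdh8, a type II cadherin of synapses in several brain regions (chr8:99024471-99416471, - strand, 392 kb), had RT between -4.14 and -3.37 in its 9 bins and a mean of -3.71 ± 0.26. Cdh11, known as OB-cadherin from osteoblasts and mesenchyme (chr8:102632095-102785642, - strand, 154 kb), had RT of -3.45, -3.71, -4.02 and -3.81 and a mean of -3.75 ± 0.24. The window of Cdh11 was the flattest among the late members, from -4.20 to -3.24, while that of Cdh8 rose to -1.86 at 350 kb past its 3′ end. The only other protein-coding gene wholly in the run is Cdh5, VE-cadherin of the endothelium, near its border with a mean RT of -0.78. The bodies of Cdh11 and Cdh1 are 3.82 Mb apart on one chromosome, and their mean RT differed by 7.27.

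Promoter sequences from RefSeq (GRCm38.p6), the 250 bases before a listed transcript start, were at hand for 6 of the 10 members, all of type II. For Cdh6, Cdh8, Cdh9 and Cdh10 that start is within 1.38 kb of the GENCODE gene start, while for Cdh12 and Cdh18 it lies 662 and 487 kb inside the gene body. For Cdh10 it is 1.38 kb inside the GENCODE body. The RefSeq gene bodies begin upstream of all 6 listed starts and contain all 6 promoters. None of these promoters therefore precedes the outermost RefSeq start of its gene. Sequences are shown for genes of the late runs because late bins held promoters of very different CG content. CG dinucleotides were counted by their letters CG, which read the same on both strands. The promoter of Cdh8 has 20 CG and a GC content of 64.4%, and 17.9% of the 32851 RefSeq promoters have as many CG. That of Cdh10 has 2 CG and a GC content of 36.8%, and 81.2% of promoters have as many. That of Cdh12, which in part overlaps annotated exon sequence of the gene in GENCODE, has 7 CG, and 46.3% of promoters have as many. Their bins had RT of -3.37, -3.84 and -3.13. The stretches below are clear of annotated exons and hold 7, 2 and 3 of these CG, which are in capitals.
Cdh8, chr8:99416504-99416641, - strand: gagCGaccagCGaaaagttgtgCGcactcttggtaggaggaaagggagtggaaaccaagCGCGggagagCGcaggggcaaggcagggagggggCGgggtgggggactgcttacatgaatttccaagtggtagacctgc
Cdh10, chr15:18820079-18820328, + strand: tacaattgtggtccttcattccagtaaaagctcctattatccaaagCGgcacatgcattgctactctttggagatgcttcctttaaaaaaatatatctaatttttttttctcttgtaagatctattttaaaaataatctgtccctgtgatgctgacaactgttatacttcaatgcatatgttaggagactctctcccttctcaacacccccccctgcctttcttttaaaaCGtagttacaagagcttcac
Cdh12, chr15:21111202-21111333, + strand: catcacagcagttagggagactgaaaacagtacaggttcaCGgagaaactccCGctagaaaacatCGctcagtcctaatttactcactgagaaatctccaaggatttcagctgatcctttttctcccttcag

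The promoters of Cdh6, Cdh9 and Cdh18 had 6, 6 and 8 CG, at RT of -0.95, -2.51 and -3.65 in their bins. Those of Cdh9 and Cdh18 also overlap annotated exon sequence in GENCODE. At the GENCODE starts of Cdh12 and Cdh18 the bins had RT of -3.73 and -3.68. The median promoter has 6 CG. Of these 6 promoters that of Cdh8 had the most CG, and those of Cdh6, Cdh9 and Cdh12 lay in bins with a higher RT.

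Cdh2, which encodes N-cadherin of neural, muscle and mesenchymal cells, was the only late member of type I. Along chromosome 18 (chr18:16588877-16809246, - strand, 220 kb) its 6 bins had RT of -1.26, -1.80, -2.28, -2.37, -2.28 and -2.51, a mean of -2.08 ± 0.47. RT was thus lowest at the gene start and highest at the 3′ end, and it rose further to -0.34 at 100 kb past that end. The lowest bin of the window was -3.94. Cdh2 lies in a late run of 5.5 Mb (mean -2.54 ± 0.92, rank 51 of 1000) with 9 protein-coding genes wholly inside it, Cdh2 among them. These include Chst9, 829 kb away with an RT of -3.84, and 5 desmosomal cadherin genes from 3152 kb away at Dsc3.

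The comparison between Cdh1 with Cdh3 and the 8 members in gene-poor regions gave means of 3.49 ± 0.04 and -2.74 ± 1.37 (SD over members), a difference of 6.23. The lowest of the 4 bins of Cdh1 and Cdh3 was 3.36 and the highest of the 76 bins of the others was 0.99, in Cdh6. Over all bins 40.9% were early, and bins of one run are not separate observations. Without Cdh6 the other 7 members averaged -3.14 ± 0.81, their highest bin was -1.11 and the difference was 6.64. Both differences exceed the SD over members and the SD between flat bins. Cdh1 and Cdh3 are neighbors in one early run and count as a single region, and 5 of the other 8 genes touch the run on chromosome 15. Members of a run are not independent, and no test was made.

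**Figure D4:**
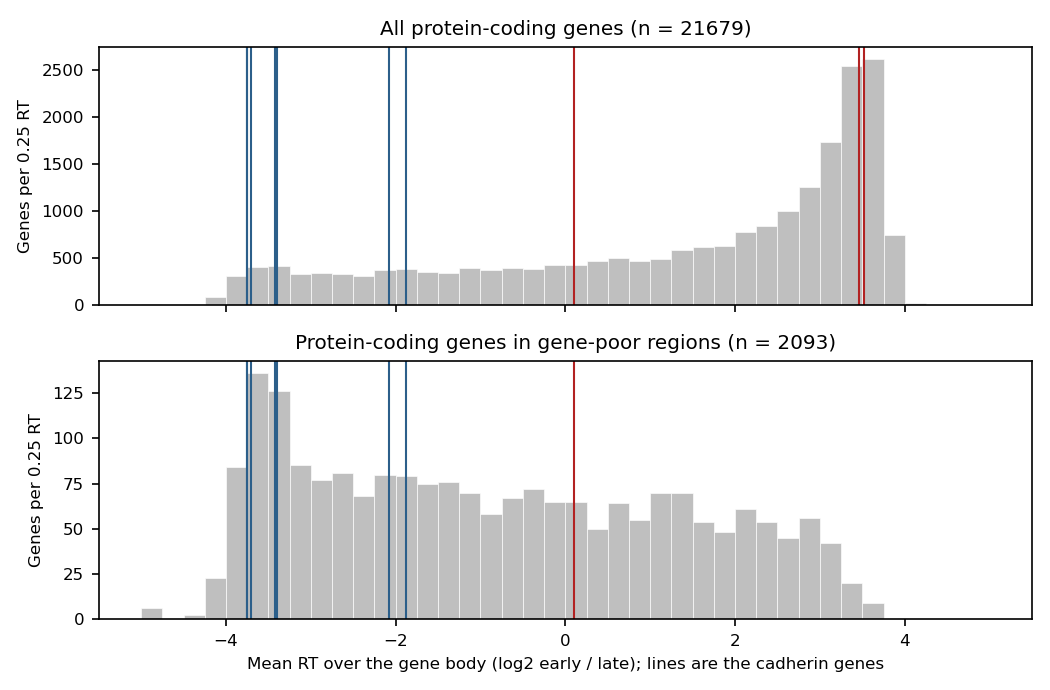
Number of protein-coding genes by mean RT over the body (log2 early over late, 0.25 per bar) for all 21679 genes and for the 2093 genes in gene-poor regions, with the cadherin genes as lines (red for a mean above 0, blue below). Cdh1 and Cdh3 fall in the early peak of all genes, while Cdh12, Cdh18, Cdh8, Cdh11 and Cdh10 lie below -3. The lower quartile is -2.80 for genes in gene-poor regions and -3.27 for those of at least 100 kb as well.

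Placed in order of mean RT, the steps that exceeded the combined SD over bins were those from Cdh3 to Cdh6 (3.36 against an SD of 0.87), from Cdh6 to Cdh9 (1.98 against 1.03) and from Cdh2 to Cdh12 (1.32 against 0.74). The other neighbors in the order did not differ beyond their spread. Their steps were 0.06 between Cdh1 and Cdh3, 0.20 between Cdh9 and Cdh2 and at most 0.29 among the 5 latest genes. The latest 5 members had higher means than 1.93% (Cdh10) to 4.56% (Cdh12) of protein-coding genes.

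RT was also set beside the gene density and base composition around the members. Spearman's rho of mean RT was 0.82 with other gene starts per Mb, 0.56 with the GC content of the body, 0.49 with that of the window and -0.64 with gene length (n = 10 genes, which share runs and in part windows). Gene density also set the group of 8, so the value of 0.82 is no evidence apart from that choice. Among the 8 alone rho was 0.65, 0.17, 0.02 and -0.31 in the same order. Cdh1 and Cdh3 had 27.1 and 27.9 other starts per Mb, Cdh6 had 3.26 and the remaining 7 had 0 to 0.64, 5 of them with none, and the median over protein-coding genes was 14.7. GC content was 46.7% and 46.8% at Cdh1 and Cdh3 and 41.9% at Cdh6. Among the late members it did not order RT, as Cdh9 had the lowest GC, 35.8%, and the highest RT, while Cdh11 at 39.1% had an RT of -3.75.

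**Figure D5:**
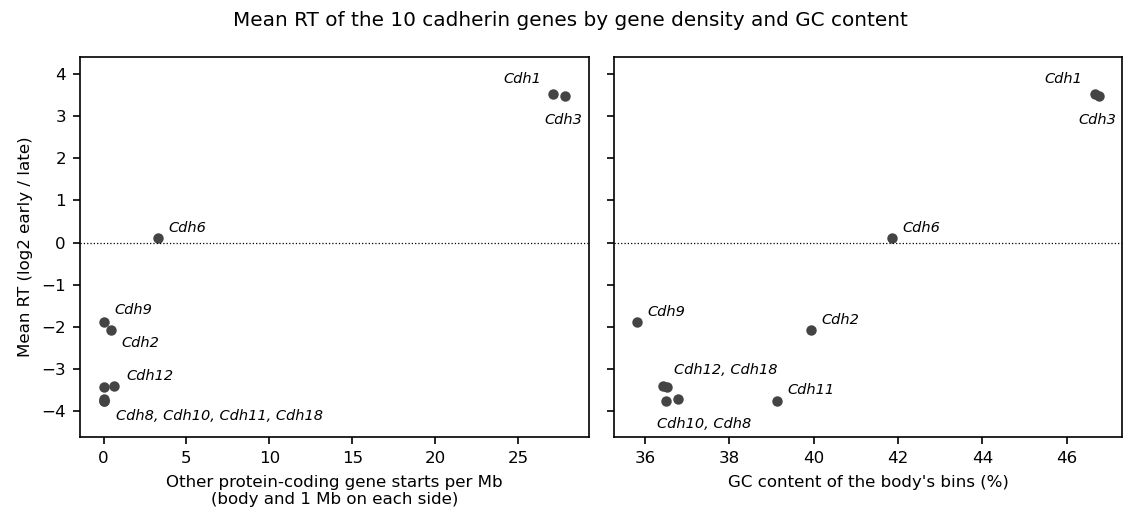
Mean RT over the body (log2 early over late, y axis) of the 10 cadherin genes against the other protein-coding gene starts per Mb within 1 Mb (left) and the GC content of the body's bins in percent (right). Cdh1 and Cdh3 stand apart at 27.1 and 27.9 starts per Mb and an RT near 3.5, and the 7 late genes lie at 0 to 0.64 starts per Mb over a range of GC content.

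Within the late runs the RT of the members' bodies was set beside that of all other bins, and no direction was shared by the 3 runs. The other bins include those of further genes, among them Cdh5 on chromosome 8 and desmosomal cadherins on chromosome 18. In the run on chromosome 15 the 55 bins in cadherin bodies averaged -3.23 ± 0.81 and the 187 other bins -3.16 ± 0.77, although Cdh9 was less late than its flanks, which averaged -3.24 ± 0.50 upstream and -2.92 ± 1.12 downstream. In the run of Cdh8 and Cdh11 the bodies of these 2 genes were later, with -3.72 ± 0.24 over 13 bins and -3.37 ± 0.66 over 148 other bins. Around Cdh2 the body was less late, with -2.08 ± 0.47 over 6 bins and -2.56 ± 0.94 over 104 other bins. In all 3 runs these differences were smaller than the SD of the other bins. Local highs were then sought, defined as the highest bin within 500 kb after a running median and at least 1 log2 unit above the lowest bin within 1 Mb on both sides. The 3 runs held 10 such highs, of which 2 were placed in a member's body, at the 3′ end of Cdh9 and inside Cdh12. The placing at Cdh9 rests on a tie, since the next bins past its 3′ end have the same smoothed RT of -1.11. Before smoothing, the peak there was -0.94 in the bin just past the body, so only the high in Cdh12 is clearly in a body. The members' bodies make up 74 of the 513 bins, or 14.4%. The other 8 lay in bins without a protein-coding gene, at smoothed RT from -2.77 to -0.81. Of the 10 members 6 had a higher RT in the bin of their 3′ end than in that of their start, beside 51% of the 10023 protein-coding genes of at least 2 bins. In Cdh2, Cdh6 and Cdh9, 3 of the 8 long members, the outer bins differed by more than 1 log2 unit, beside 35.5% of all genes of at least 100 kb. Both shares of members are near these backgrounds.

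Other genes of cadherin adhesion were read in the same way. Their counts stand beside the 72.5% of all protein-coding genes that were early. Of the 8 other classical cadherins 4 were early, Cdh24 at 3.57, Cdh15 at 3.33, Cdh22 at 2.56 and Cdh4 (R-cadherin) at 1.28, and 4 were late, Cdh5 at -0.78, Cdh19 at -1.88, Cdh20 at -2.83 and Cdh7 at -3.89. Cdh7 and Cdh19 lie in the run of 11.9 Mb on chromosome 1 that ranked next after that of Cdh9 to Cdh18, and Cdh20 lies in a run of 11.6 Mb, rank 4, on the same chromosome. Of 5 other cadherins 3 were early, and RT ran from 1.61 at Cdh23 of the inner ear to -1.49 at Cdh13 (T-cadherin). Among the 3, Cdh17 at 0.026 is nearer to 0 than the SD between flat bins. The 9 desmosomal cadherins, neighbors on chromosome 18, had RT from 1.88 at Dsg2 to -2.73 at Dsc3, and 3 of them were early. Dsg1b, at -0.0011, counts as late though it is also nearer to 0 than that SD.

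Of the 10 intracellular partners of cadherins, with a median of 2.36, 7 were early, which is near the 72.5% of all protein-coding genes. They include beta-catenin (Ctnnb1) at 2.49, alpha-E-catenin (Ctnna1) at 3.10, p120-catenin (Ctnnd1) at 3.02 and plakoglobin (Jup) at 3.78. The 3 late ones by their mean RT were Ctnnd2 at -0.41, Ctnna3 at -2.06 and Ctnna2, the neural alpha-catenin, at -3.52. Ctnnd2 and Ctnna3 are 857 and 1574 kb long and start in early runs, so they are late only as means over the body. Of the 5 transcriptional repressors of Cdh1, which act in epithelial to mesenchymal transition, 1 was early, Snai1 at 3.60. Zeb1 at -0.997, Snai2 at -1.25, Zeb2 at -1.32 and Twist1 at -3.53 were late. These lists are descriptions, and no list was tested against another.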

How the data were processed

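Reads of the early and late fractions were scaled to RPM by the authors, who deposited log2 ratios of early over late reads per 50 kb bin, combining the libraries in a way not given in the sources used here. The submitters' processing notes name Bowtie2, SAMtools, bedtools and mm10. No smoothing or bin filter is stated for this profile, and any applied could blur borders such as that in Cdh6. Bins of Y and the mitochondrial genome were left out, which leaves 51153 of 51427.

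RT of a gene was the mean over bins that overlap its GENCODE vM21 body, and a protein-coding gene in a gene-poor region had at most 4 other starts per Mb within 1 Mb. Runs were neighboring bins on one side of 0 with no gap over 200 kb. Without replicate values no test was possible. The genes named are the members, the listed adhesion genes, nearest neighbors and genes in the highest bin of a window. Members and lists were chosen with earlier results of these data known. Genes of further bins, the rules for local highs and single bins, and the use of RefSeq bodies were chosen after values were seen. Steps were tested on simulated data. Python 3.11.15, numpy 2.4.6, scipy 1.17.1, pandas 2.3.3 and matplotlib 3.10.9 were used.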

Additional observations from a re-analysis of the deposited data

How the results depend on the processing

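No paired analysis was possible because the deposited profile holds 1 value per bin for all 4 libraries, and for the same reason leaving out a library was not run. Among the members Cdh6 changed sign, to an RT of -0.95 when the bin of the gene start was used and to -0.46 when the body was taken with 1 Mb on each side, where the late flank lies farther from 0 than the early one. The other 9 members kept their sign with the start bin, the median over bins, weights by overlap, the 1 Mb window, a running median and the RefSeq bodies. Of the members' values under these settings 45 stayed within the SD between flat bins of 0.15 and 13 moved beyond it with the same sign. The 45 include values that could not move. These are all values with the RefSeq bodies and the medians of Cdh1 and Cdh3, which have 2 bins each. The difference between Cdh1 with Cdh3 and the members in gene-poor regions was 6.64 with the start bin and 6.64 with a limit of 2 starts per Mb, which leaves out Cdh6, and it ranged from 6.09 to 6.64 when 1 member was left out in turn. The share of early protein-coding genes was 79.7% with the cut at the median RT of bins and 73.6% on the autosomes, outside the exact 95% binomial interval of 71.9 to 73.1%, which covers counting only. The share in gene-poor regions was 48.7% with that cut, 18.6% and 47.4% with limits of 2 and 6 starts per Mb, and 32.1% and 41.9% with windows of 500 kb and 2 Mb. RefSeq bodies, an alternative chosen after seeing the data, cover the same bins as the GENCODE bodies in every member. Their 3 early members and difference of 6.23 were therefore fixed in advance. With the start bin 2 of 10 members and 0 of the 8 in gene-poor regions were early, beside 72.9% and 38.3% of all such genes. With weights by overlap Cdh11, at -3.80, was later than Cdh10, at -3.77. The read depth per bin is unknown.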
